A study of Danio rerio with 15 samples.

Results

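Among the transcripts measured in zebrafish skeletal muscle, 11 were present in every scaf1-/- fish of one diet and had no count in any scaf1-/- fish of the other. They were chosen by their counts in the 8 scaf1-/- fish. A transcript was taken when its rounded count was 0 in all 4 fish of one diet and its level was at least 0.5 CPM (counts scaled to a library of 1000000) in all 4 fish of the other. Transcripts that parted the genotypes on the double diet in the same all-or-none manner were left out, which removed 4 that otherwise met the rule. Of 57775 transcripts in the files, 49131 had a count in at least 1 fish. Of these, 6 were lost on the double diet and 5 appeared on it, or 0.0122% and 0.0102%. Because the rule used the diet contrast of the scaf1-/- fish, the all-or-none difference itself is a description and was given no test.

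The study asked how doubled feeding changes the muscle of fish that lack Scaf1. The fish were females of the scaf1 Δ1 line on an AB background, 7 months old at the start, fed for 6 weeks on a standard or a double diet and sequenced as 1 library per fish. Each diet had 4 scaf1-/- fish (KO in the labels), and the scaf1+/+ fish (WT) were 4 with standard and 3 with double feeding. The labels give 3 or 5 feeds per day and 13 fish per tank of 2 l, and the methods give 2 or 4 dry feeds of 15 mg and 1 artemia feed per weekday at 10 fish per tank. Δ1 is a CRISPR/Cas9 deletion that all cells of the animal carry, and it is 1 of the study's lines, compared with a wild-type line from the mating of the same founder with AB fish. Fish are named here by group and by the mark in their label, such as 6 or A.

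Scaf1, also called Cox7a2l or Cox7a3, is a mitochondrial protein that joins respiratory complexes III and IV into supercomplexes, the assemblies through which skeletal muscle carries out part of its oxidative phosphorylation. Reads were assigned to single transcripts. One gene can give several transcripts by alternative splicing or by alternative starts and ends, and a count of 0 for one of them does not say that its gene is silent. When 2 transcripts share most of their sequence, the quantifier divides the shared reads between them by estimation, and a small change in the reads can then move the whole estimate from one to the other. The tables used here do not pair these transcripts with genes, so the 11 are named by their Ensembl identifiers, no role is given to any of them, and the muscle identity of the samples and the level of scaf1 were not checked.

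Libraries held 11671308 to 15844496 counts in 14 fish and 4045333 in scaf1+/+ standard diet fish C. With 15655 detected transcripts against 27748 to 35800 in the others, that fish stood apart. A count of 0 allows up to 3 counts, which is 0.189 to 0.257 CPM in the 14 libraries and 0.742 CPM in fish C. A zero there therefore says little at the 0.5 CPM floor, and results that rest on fish C are given with and without it. The floor of 3 counts covers counting error only, not the division of shared reads between transcripts. Folds over it given below are therefore no lower bound on a change. The scaling factors of the trimmed mean of M-values (TMM), which correct for a few transcripts taking many reads, ran from 0.56 to 1.82. Levels below are plain CPM, as the rule was, unless TMM is named.

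The 6 transcripts lost on the double diet ranged in mean level over the scaf1-/- standard diet fish from 22.5 to 1.71 CPM. ENSDART00000171916.2, with a length of 5084 bases, was at 30.9 CPM in fish 6, 43.3 in A, 5.66 in B and 10.1 in C on the standard diet, and at 0 in fish 2, 3, 6 and 7 on the double diet. Its mean of 22.5 ± 17.7 CPM (SD, n = 4) was 104-fold the floor of 3 counts per library in the double diet fish. Fish 6 and A were the highest on this scale. With TMM scaling the values were 19.1, 34.1, 8.34 and 15.8 CPM in fish 6, A, B and C, so that fish 6 was close to C. In scaf1+/+ fish it had 5.26, 12.5 and 18.9 CPM in standard diet fish 6, 7 and B and no count in C. On the double diet it had 9.38 CPM in fish 3 and no count in fish 2 and 4. One scaf1+/+ double diet fish thus carried it within the range of the standard diet fish, while the other 2 did not carry it at all.

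ENSDART00000147487.2, of 830 bases, was at 18.2, 44.9, 10.4 and 9.12 CPM in scaf1-/- standard diet fish 6, A, B and C and at 0 in the double diet fish. The mean was 20.7 ± 16.7 CPM (SD, n = 4), or 95.6-fold the floor. Among scaf1+/+ fish the standard diet values were 1.34 in fish 6, 46.5 in B and no count in 7 and C. The double diet values were 5.85 in fish 2, 63.5 in 3 and 0.281 in 4. The highest value of this transcript in the whole series thus came from a scaf1+/+ fish on the double diet, where every scaf1-/- fish lacked it. Within each scaf1+/+ group the spread was wide, and the diets overlapped.

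ENSDART00000184961.1, of 507 bases, was the steadiest of the 6, at 9.21, 10.4, 8.57 and 2.87 CPM in scaf1-/- standard diet fish 6, A, B and C. Its mean was 7.76 ± 3.34 CPM (SD, n = 4), or 35.9-fold the floor of the double diet fish. The estimate was not an exact 0 in all of those, since double diet fish 2 held 0.46 of a count before rounding. That was the largest such remainder of all members. ENSDART00000182280.1 held 0.108 of a count in scaf1-/- standard diet fish A. In their absent diet ENSDART00000171916.2, ENSDART00000169777.2 and ENSDART00000148365.2 held at most 0.0004, 1.25e-06 and 3.68e-08 of a count, and the other members an exact 0. In scaf1+/+ fish it had 11.3, 1.26 and 10.5 CPM in standard diet fish 6, 7 and B, and none in C. On the double diet it had 9.11 and 15.5 CPM in fish 2 and 3 and none in 4. Scaf1+/+ fish of both diets therefore reached the level of the scaf1-/- standard diet fish.

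ENSDART00000148365.2, of 520 bases, was at 4.42, 9.89, 0.612 and 2.01 CPM in scaf1-/- standard diet fish 6, A, B and C. Its lowest fish, B, held 8 counts. In scaf1+/+ fish it was at 4.67, 4.52 and 7.88 CPM in standard diet fish 6, 7 and B, with none in C, and at 0.578, 2.85 and 0.351 CPM in double diet fish 2, 3 and 4. Without fish C, all scaf1+/+ double diet fish lay below all scaf1+/+ standard diet fish, so the order of the diets was that of the scaf1-/- fish. With TMM scaling the groups overlapped, at 3.19 CPM in double diet fish 3 against 2.49 in standard diet fish 7.

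ENSDART00000027022.8, the longest at 5991 bases, was at 3.41, 0.582, 1.68 and 1.58 CPM in scaf1-/- standard diet fish 6, A, B and C. It had 2.42, 1.48 and 1.88 CPM in scaf1+/+ standard diet fish 6, 7 and B, none in C, 0.867 CPM in double diet fish 2 and none in 3 and 4. Here too the scaf1+/+ diets did not overlap once fish C was left out, on the plain and on the TMM scale. Its membership depends on the scaling, because fish A fell to 0.46 CPM with TMM, under the floor. ENSDART00000182757.1, of 3973 bases, was at 3.79, 1.16, 0.536 and 1.36 CPM in the scaf1-/- standard diet fish 6, A, B and C, at 4.51 and 1.20 CPM in scaf1+/+ standard diet fish 6 and B, and at 0.923 and 0.492 CPM in scaf1+/+ double diet fish 3 and 4. The remaining scaf1+/+ fish, 7 and C on the standard diet and 2 on the double diet, had no count of it.

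**Figure D1:**
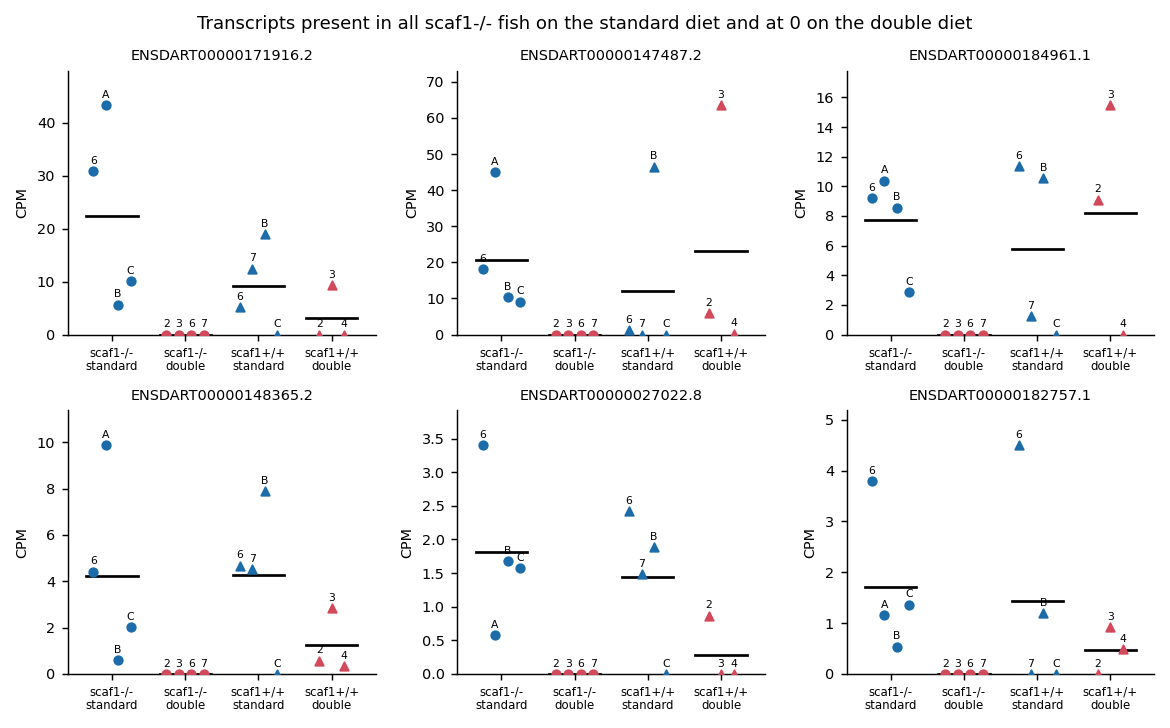
Level in CPM (linear axis from 0, its own scale in each panel) of the 6 transcripts lost on the double diet in scaf1-/- fish, with 1 point per fish labelled by its mark, circles for scaf1-/- and triangles for scaf1+/+, blue for the standard and red for the double diet, and a black line at the group mean. The 4 scaf1-/- double diet fish sit at 0 in every panel, and in each panel at least 1 of the 3 scaf1+/+ double diet fish lies above 0.5 CPM.

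The 5 transcripts that appeared on the double diet had mean levels of 17.2 to 1.28 CPM over the scaf1-/- double diet fish. ENSDART00000171479.2, of 3177 bases, was at 22.8, 21.9, 17.4 and 6.65 CPM in scaf1-/- double diet fish 2, 3, 6 and 7 and at 0 in standard diet fish 6, A, B and C. The mean of 17.2 ± 7.43 CPM (SD, n = 4) was 77.8-fold the floor of the standard diet fish. In scaf1+/+ fish it was nearly all in 1 animal. Standard diet fish C had 68.2 CPM (276 counts), the highest value of the series, in the shallowest library. The others had 1.25 CPM in standard diet fish 6, 3.58 CPM in double diet fish 4, and no count in standard diet fish 7 and B or in double diet fish 2 and 3.

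ENSDART00000169777.2, of 1546 bases, was at 3.24, 4.34, 4.36 and 4.11 CPM in scaf1-/- double diet fish 2, 3, 6 and 7, the narrowest spread of the 11 at a coefficient of variation of 13.2%. Its mean of 4.01 ± 0.529 CPM (SD, n = 4) was 18.2-fold the floor. Scaf1+/+ fish were not as uniform. On the double diet they had no count in fish 2, 3.62 CPM in 3 and 8.01 CPM in 4, and on the standard diet 1.25 CPM in fish 6 and no count in 7, B and C. The highest 2 of the scaf1+/+ values thus came from the double diet, and the lowest double diet value was 0.

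ENSDART00000164656.2, of 1141 bases, was at 1.29, 4.72, 3.84 and 1.64 CPM in scaf1-/- double diet fish 2, 3, 6 and 7. It was low in every scaf1+/+ fish, at 0.417 and 0.371 CPM in standard diet fish 6 and 7, none in B and C, and 0.650, 0 and 0.281 CPM in double diet fish 2, 3 and 4. All scaf1-/- double diet fish lay above all other fish of the series for this transcript. The rule itself set them at 0.5 CPM or more and the scaf1-/- standard diet fish at 0, so much of this order comes from the choice. The share of all transcripts with this order was not computed. Of the 11 it was the one with no scaf1+/+ fish at or above 1 CPM. Those scaf1+/+ values are 4 to 9 counts per fish where there was any.

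ENSDART00000182280.1, of 3936 bases, was at 1.88, 2.25, 1.77 and 3.06 CPM in scaf1-/- double diet fish 2, 3, 6 and 7. In scaf1+/+ fish it was at 0.867, 2.15 and 2.67 CPM in double diet fish 2, 3 and 4, at 2.34 and 2.52 CPM in standard diet fish 6 and 7, and at 0 in B and C. ENSDART00000140490.3, of 921 bases, was at 1.49, 1.20, 1.40 and 1.05 CPM in scaf1-/- double diet fish 2, 3, 6 and 7. It was present in every scaf1+/+ fish but C, at 3.25, 4.08 and 1.12 CPM in double diet fish 2, 3 and 4 and 2.50, 3.34 and 0.685 CPM in standard diet fish 6, 7 and B. For these 2 transcripts the scaf1-/- standard diet fish were the group without counts, and scaf1+/+ fish had them on either diet.

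**Figure D2:**
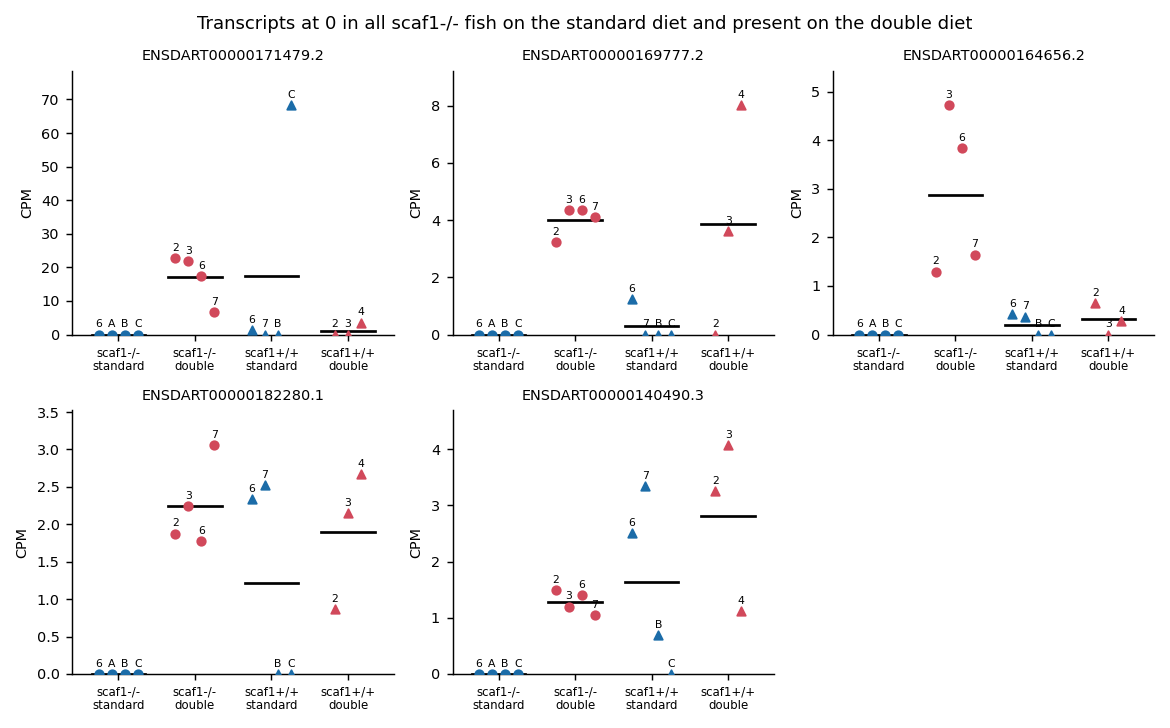
Level in CPM (linear axis from 0, its own scale in each panel) of the 5 transcripts that appeared on the double diet in scaf1-/- fish, with 1 point per fish labelled by its mark, circles for scaf1-/- and triangles for scaf1+/+, blue for the standard and red for the double diet, and a black line at the group mean. The 4 scaf1-/- standard diet fish sit at 0 in every panel, and scaf1+/+ standard diet fish C alone, at 68.2 CPM, sets the scale for ENSDART00000171479.2.

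Members near the limits of the rule rest on few counts. On the side lost on the double diet, the lowest fish held 7 counts for ENSDART00000182757.1 (0.536 CPM) and 7 for ENSDART00000027022.8 (0.582 CPM). Just below the floor lay ENSDART00000157890.2 and ENSDART00000193495.1, each at 0.459 CPM with 6 counts in the lowest fish. On the other side the lowest member was ENSDART00000140490.3 (1.05 CPM, 14 counts), and the first outside was ENSDART00000005671.10 at 0.448 CPM. A further 84 transcripts lost and 37 gained had counts in all 4 fish of one diet and none in the other but fell under the floor in at least 1 fish. ENSDART00000189989.1, just outside on the side lost, and ENSDART00000163250.2, just outside on the side gained, were at or above the floor in all 4 fish of one diet and kept only 2 counts in total in the other.

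**Figure D3:**
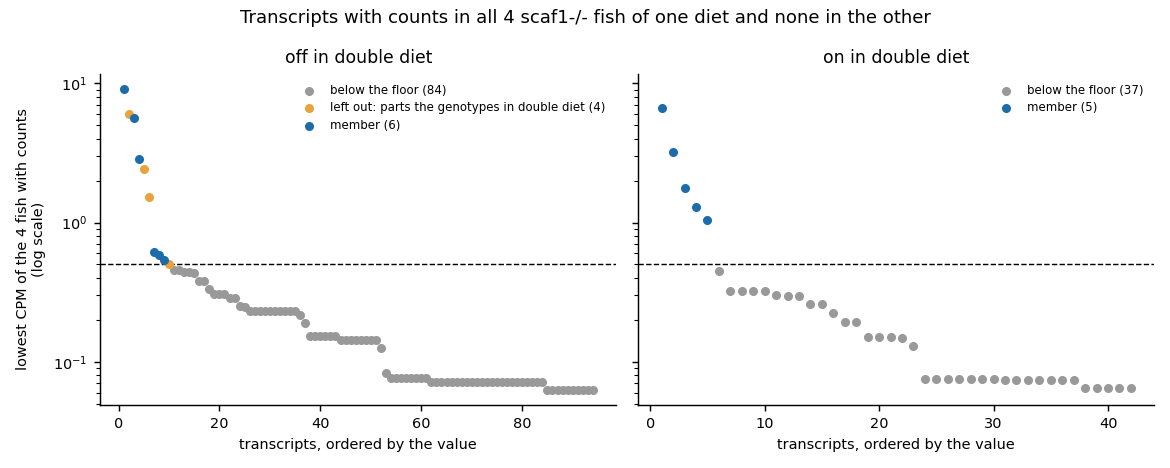
Lowest CPM among the 4 scaf1-/- fish that had counts (log axis), for each transcript with counts in all 4 fish of one diet and none in the other, ordered by that value, with members in blue, those left out for parting the genotypes in orange and the rest in grey. The dashed line is the floor of 0.5 CPM. On the left, members and near misses run into each other at the line (0.536 CPM inside, 0.459 outside), and on the right there is a gap between 1.05 and 0.448 CPM.

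The 4 transcripts left out were all on the side lost on the double diet. ENSDART00000147947.2 had 6.03 to 40.2 CPM in the scaf1-/- standard diet fish and 17.8 to 72.0 CPM in the scaf1+/+ double diet fish, with none in the scaf1-/- double diet fish. ENSDART00000127131.3 had 1.53 to 3.35 CPM and 1.62 to 11.3 CPM in the same groups, ENSDART00000193569.1 had 2.41 to 4.52 and 0.615 to 2.60 CPM, and ENSDART00000187290.1 had 0.505 to 3.99 and 0.578 to 1.34 CPM. For these 4, unlike the 6 kept, every scaf1+/+ fish on the double diet was above the floor, which is what the exclusion required.

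The state of the members in the scaf1+/+ fish on the standard diet was not itself used by the rule. All 6 transcripts lost on the double diet were mixed there, with some fish at 0 or under the floor, but only through fish C in 4 of them. Without fish C, these 4 were at or above 0.5 CPM in all 3 remaining fish, as 78.9% of the 26970 tested transcripts were. That share was not matched to the level the rule asked of the 6 in scaf1-/- standard diet fish, and nothing is read from it. The other 2, ENSDART00000147487.2 and ENSDART00000182757.1, had no count in fish 7. Of the 5 that appeared on the double diet, ENSDART00000140490.3 alone was at or above the floor in all 3 of those fish. None of the 11 was at 0 in all scaf1+/+ fish of the standard diet.

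Many members were thus present in one scaf1+/+ fish and absent from the next on the same diet. Among the 3 standard diet fish without C, 2 of the 6 transcripts lost and 3 of the 5 gained had a fish at 0 beside a fish at 0.5 CPM or more, against 10.5% of all transcripts tested. Among the double diet fish it was 4 of 6 and 3 of 5 against 11.4%. There the exclusion bars the 6 from being present in all fish, so the 4 of 6 is partly set by the choice. It also bars the 5 from being absent in all, but on that side it removed 0 transcripts. The members' mean levels over all 15 fish had a median of 3.88 CPM for those lost and 1.34 CPM for those gained, beside 3.58 CPM over all tested, and the shares were not adjusted for level. The standard diet counts are touched by the choice too. Members were taken for having no count in 4 scaf1-/- fish, and the shares over all transcripts were not matched for that. Nothing is read from the difference.

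Between the diets in scaf1+/+ fish, none of the 11 members was called by edgeR's quasi-likelihood test across 26970 transcripts (a call needed a log2 fold change beyond 1 in either direction and an adjusted p below 0.05), and 0% of all transcripts were. At an unadjusted p under 0.05 there was 1 member, ENSDART00000169777.2, against 3.9% of the tested transcripts. DESeq2 called none of the 11, with 0.167% called over the 27601 transcripts to which it gave an adjusted p. ENSDART00000164656.2, at no more than 0.650 CPM in any scaf1+/+ fish, passed edgeR's filter on low counts only with the scaf1-/- libraries included. The scaf1+/+ double diet fish entered the exclusion, which removed 4 transcripts on the side lost and 0 on the side gained. It favours low values for the 6, so even the direction of their differences is not free of the choice.

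With all fish, ENSDART00000169777.2 had the largest difference in the direction of the scaf1-/- fish, higher on the double diet by 4.08 on the log2 scale (SE 1.64, adjusted p = 1 by edgeR). Leaving out 1 fish moved it between 3.22 and 8.76, the latter without standard diet fish 6. ENSDART00000027022.8 fell by 2.23 (SE 1.39) and ENSDART00000148365.2 by 1.32 (SE 1.18), both with an adjusted p of 1 by edgeR. Leaving out 1 fish moved ENSDART00000027022.8 between -6.82 (without double diet fish 2) and -1.68, and ENSDART00000148365.2 between -3.04 (without double diet fish 3) and -0.45 (without standard diet fish B). The order of sizes also rested on single fish, as ENSDART00000171916.2 was at -9.63 without double diet fish 3. ENSDART00000027022.8 and ENSDART00000148365.2 were the 2 of 6 whose scaf1+/+ diets did not overlap without fish C, against 12.1% of all tested transcripts with such an order. With TMM scaling 1 of 6 was left, and the share over all transcripts was not computed on that scale. Fish C had no count of any of the 6, so with it no double diet fish could lie below all standard diet fish. The 0 of 6 found with it was thus fixed in advance. None of the 5 gained had all scaf1+/+ double diet fish above all standard diet fish without C, against 3.33% of those tested.

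ENSDART00000171479.2 turned with 1 library. Its difference between the diets in scaf1+/+ fish was -4.69 on the log2 scale (SE 2.68, edgeR) with all fish and 2.15 (SE 1.80) without standard diet fish C. ENSDART00000147487.2 and ENSDART00000184961.1, lost in scaf1-/- fish on the double diet, were at 1.20 (SE 1.87) and 0.85 (SE 1.41) on the same scale in scaf1+/+ fish, toward the double diet. The other 5 values, of ENSDART00000171916.2, ENSDART00000182757.1, ENSDART00000164656.2, ENSDART00000182280.1 and ENSDART00000140490.3, lay between -1.04 and 1.26 with SEs of 0.863 to 1.66, in the direction of the scaf1-/- fish and within 1.5 SEs of 0. The interaction of genotype and diet was not tested, since the rule used 1 of its arms.

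**Figure D4:**
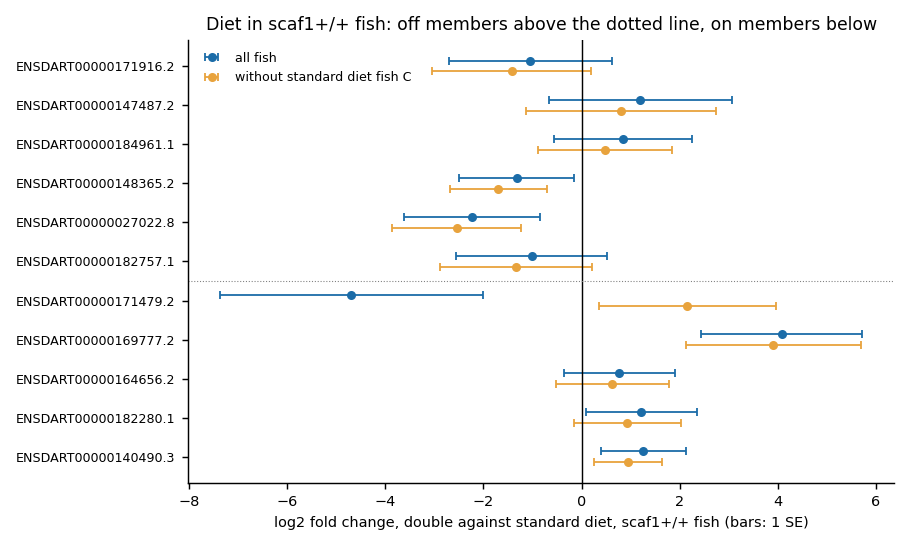
Fitted log2 fold change between double and standard diet in scaf1+/+ fish (edgeR, bars 1 SE) for the 11 members, blue with all fish and orange without standard diet fish C, with the transcripts lost in scaf1-/- fish above the dotted line and those gained below it. ENSDART00000171479.2 moves from -4.69 to 2.15 when fish C is left out, and the other 10 keep their side of 0.

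Between the genotypes on the standard diet, edgeR called none of the 11, and 0% of all transcripts. DESeq2 called 3 of the 5 that were at 0 in the scaf1-/- standard diet fish, ENSDART00000171479.2, ENSDART00000182280.1 and ENSDART00000140490.3, all lower in scaf1-/- fish. Of the 34080 transcripts given an adjusted p, 0.0851% were called lower. The rule bound the scaf1-/- standard diet values of all 11, at 0 for the 5 gained and at 0.5 CPM or more for the 6 lost. Nothing is therefore read from the calls or from the lack of calls. ENSDART00000171479.2 was no longer called by DESeq2 when scaf1+/+ fish C was left out.

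A feature that the rule did not use was also looked at. An estimated count that is not a whole number comes from reads divided between transcripts. Of the values with a count, 48 of 52 (92.3%) for the transcripts lost and 39 of 41 (95.1%) for those gained were more than 0.01 from a whole number, against 67.5% over all transcripts and fish. Exceptions were few, such as ENSDART00000169777.2, at whole estimates of 15 counts in scaf1+/+ standard diet fish 6 and 47 in double diet fish 3. The 67.5% covers every value with a count and was not matched to the level that the rule asks of members. The members' values come from only 6 and 5 transcripts and from the same estimates, so they are not independent. What part shared reads have in the all-or-none pattern was not tested. Median length was 2402 bases for those lost and 1546 for those gained, beside 1607 for all transcripts with a count and 2116 for the tested transcripts.

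Library properties and the members' summed level were set side by side. In scaf1-/- standard diet fish, B and C had 27848 and 27748 detected transcripts and TMM factors of 0.68 and 0.64, and fish 6 and A had 35800 and 34455 detected transcripts and factors of 1.62 and 1.27. The summed level of the 6 transcripts lost was 69.9 and 110 CPM in fish 6 and A and 27.5 and 27.0 CPM in B and C. ENSDART00000171916.2 and ENSDART00000147487.2 made up most of each sum. Not every member followed that order, as ENSDART00000027022.8 was at 0.582 CPM in A, 1.68 in B and 1.58 in C. ENSDART00000182757.1 was at 1.16 CPM in A and 1.36 in C. With TMM scaling the sums were 43.2, 86.9, 40.5 and 42.4 CPM in fish 6, A, B and C, where only fish A stood above the others. The scaf1-/- double diet fish, with 29270 to 30839 detected transcripts, lay between these 2 pairs. The part of detection in the members' levels was not tested. In bulk muscle, less RNA per cell and fewer cells that carry a transcript cannot be told apart.

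The same rule was set on other fish for comparison. Before the exclusion it took 10 transcripts lost and 5 gained in the scaf1-/- fish. When 1 fish of each diet was left out, the 16 possible choices gave 22 to 93 lost and 13 to 39 gained. In scaf1+/+ fish, with 3 fish per diet and without fish C, it took 96 lost and 19 gained, out of 49131 transcripts with a count. None of the 11 members was among them, and at so small a share nothing is read from that. With fish C included the scaf1+/+ counts were 3 and 12. Transcripts that part the diets fully in few fish were therefore not found in the scaf1-/- genotype alone, and a difference in their number between the genotypes was not tested.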

How the data were processed

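RNA of skeletal muscle from 15 female zebrafish was measured by RNA-seq. Reads were checked with FastQC (0.11.8 in the submitters' processing notes) and pseudo-aligned with kallisto 0.45.0 to the cDNA of Ensembl release 94, and the authors deposited estimated counts per transcript. Here these were rounded to whole numbers, and CPM were taken over the sum of the rounded counts. Groups came from the sample labels. Members and lists were chosen with earlier results of these data known.

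Transcripts passing the edgeR filterByExpr function with a smallest count of 10 were tested with edgeR 4.0.16 in R 4.3.3 (TMM, robust quasi-likelihood test, Benjamini-Hochberg adjustment over all transcripts, all 15 libraries, 1 coefficient per group). All 11 members passed, but the filter saw all 15 libraries, so the groups used by the rule could carry a member through. With only the 2 groups compared, ENSDART00000164656.2 did not pass for the diets in scaf1+/+ fish. For the genotypes on the standard diet, none of the 5 gained passed in that setting. The SE was the size of the fold change over the root of F. Alternatives used DESeq2 1.42.0, limma 3.58.1 on log2(CPM + 1), other scaling, no filter, only the groups compared, a block for the replicate mark and the omission of single fish. The tests were tried on simulated data first, with a bar set only on the sign of planted changes. That trial does not show that a change in these members would be called. All members are named, as planned. Planned gene totals and gene lists were not run, since no table used here pairs these transcripts with genes. Libraries were taken as 1 fish each. Tanks are not given per fish, so p-values measure only the spread between these samples. Floors cover counting error only, and SEs include the spread between fish.

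Fish with the same mark were checked as pairs. Their deviations from the group means correlated at r = 0.43, 0.12 and 0.39 in the standard diet and -0.10 and -0.17 in the double diet, so the standard diet marks passed the bound of 0.1 set for pairs. Standard diet fish of different marks ran from r = -0.44 (scaf1-/- C with scaf1+/+ 7) to 0.52 (scaf1-/- 6 with scaf1+/+ 7). The same-mark values there were all positive and lay within that range. Whether they exceed those of other pairs was not tested. No stated design pairs the marks, and a fit with a block for the mark is given as an alternative.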

Additional observations from a re-analysis of the deposited data

Results flagged for a closer look

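Of 30 sets of 4 values looked at, 5 held a fish far from the other 3. The limit used gives about 1 in 20 by chance for normally distributed values. That rate does not apply to sets with zeros, where 1 fish with a count beside 3 at 0 is flagged whatever its value. In scaf1+/+ standard diet fish, ENSDART00000147487.2 was at 46.5 CPM in B with the others at 0 to 1.34, ENSDART00000171479.2 at 68.2 CPM in C with the others at 0 to 1.25, and ENSDART00000169777.2 at 1.25 CPM in 6 with the others at 0. Scaf1+/+ standard diet fish C also stood apart in its 15655 detected transcripts, against 33493 to 35766 in fish 6, 7 and B. Among scaf1-/- double diet fish, replicate 2 had the highest total, 15453518 counts, and the other fish had 13359354 to 13540237.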

How the results depend on the processing

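The number of members depends on the floor, on the exclusion and on single fish, and the causes were not tested beyond what each setting does by construction. With a floor of 0.25 CPM, 18 transcripts were lost on the double diet (4 of the 6 among them) and 15 gained. With a floor of 1 CPM, 4 were lost, with 3 of the 6 among them, and the 5 gained were kept. Allowing 3 counts per fish as absent gave 15 lost, keeping those that part the genotypes gave 10 lost, and TMM library sizes gave 8 gained and 7 lost (5 of the 6). Leaving out 1 scaf1-/- fish at a time gave 9 to 33 lost (the highest without standard diet fish B) and 8 to 20 gained (the highest without standard diet fish 6), since a rule on fewer fish is easier to meet. The members mixed in both scaf1+/+ groups were 2 to 6 of those lost, with 2 when standard diet fish C was left out and 3 without double diet fish 4, and 2 to 3 of those gained, or 4 of those gained at a floor of 1 CPM. For the diets in scaf1+/+ fish no alternative called a member, but with only the groups compared 10 were tested, without ENSDART00000164656.2. Directions turned without 1 fish for ENSDART00000171916.2 (-9.63 to 0.048 on the log2 scale), ENSDART00000147487.2 (-2.33 to 6.30), ENSDART00000184961.1 (-0.42 to 1.67), ENSDART00000182757.1 (-1.96 to 0.28) and ENSDART00000171479.2 (-11.79 to 2.15, and 2.16 by DESeq2 without standard diet fish C, a setting chosen after seeing the data). Without scaf1+/+ standard diet fish 6, ENSDART00000169777.2 was at 0 in all fish of both standard diet groups and gave no value for the genotypes. For the genotypes in standard diet, where the rule set the scaf1-/- values, DESeq2 called 3 members, or 2 without fish C. ENSDART00000148365.2 ran from -0.46 to 1.04 without single fish, with -0.21 by DESeq2 without C. With only the groups compared, 6 members were tested for the genotypes, and none of them was among those gained. Median-ratio scaling moved the median over all transcripts from -0.09 to -0.28 for the genotypes and from -0.10 to -0.21 for the diets, and turned no member. With the replicate block edgeR called 0 members in both comparisons. For the diets in scaf1+/+ fish this says nothing of stability, since the blocked fit could not estimate the 6 transcripts lost (SE of 613 for ENSDART00000171916.2), and ENSDART00000169777.2 was at 1.35. It turned ENSDART00000164656.2 to -0.65 and ENSDART00000182280.1 to -0.32 for the diets in scaf1+/+ fish, which share no mark across diets.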
